A study of Mus musculus with 5 samples.

Results

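The genes described here are the 5 FGF receptor genes of the mouse (Fgfr1, Fgfr2, Fgfr3, Fgfr4 and Fgfrl1) and 5 genes for proteins that carry the signal away from the activated receptor (Frs2, Frs3, Grb2, Shc1 and Ptpn11). They were chosen by symbol, and these 10 were all found among the 32285 genes listed. The measurements were single-cell transcriptomes of mouse epiblast stem cells (EpiSCs), pluripotent cells taken from the post-implantation epiblast. By the study's methods the wild-type line was derived from a single embryo of a 129 background, and it was kept in medium with FGF2, ActivinA and the Wnt pathway inhibitor XAV939. All 5 libraries came from cells differentiated for 3 days in N2B27 with 1 µM of CHIR99201 (spelled as in the labels; the Wnt agonist Chi) and 8 ng/ml BMP, which was BMP4 by the methods. The libraries differed in what was added: no FGF2, 0.75, 3 or 12 ng/ml FGF2, or 30 nM of AZD4547, an inhibitor of FGF receptor kinases (FGFRi). No FGF2 dose is given for the FGFRi library, so it differs from the library without FGF2 by the inhibitor and, possibly, by FGF2. Each condition had 1 library, so no difference between conditions could be tested against the spread between cultures, and all intervals below are 95% intervals that cover counting error only.

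FGF receptors are single-pass tyrosine kinases that dimerise when FGF binds together with heparan sulfate. The activated kinase phosphorylates the membrane-anchored docking protein Frs2, which recruits Grb2 and the phosphatase Shp2 (encoded by Ptpn11) and thereby switches on Ras and the Erk cascade. In the gastrulating mouse embryo Fgfr1 is the receptor known to be required for cells to leave the primitive streak as mesoderm, while Fgfr2 is known for its roles in extraembryonic and epithelial tissues. Alternative exons of Fgfr1 to Fgfr3 give IIIb and IIIc isoforms with different ligand preferences, which tags from the 3′ ends of transcripts cannot tell apart.

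The libraries held 1696 to 2725 cells (10653 in all) once barcodes had been required to show at least 2500 genes and at most 10% of UMIs from mitochondrial genes. A UMI is a molecular tag that marks 1 captured transcript, and the retained cells carried 47824660 to 81538748 UMIs per library, with medians of 24408 to 29661.5 per cell. Retained cells of any pair of libraries shared at most 2 barcodes. Levels are given as CPM, that is, UMIs of a gene per 1000000 UMIs of the retained cells. Because the assay tags each transcript once near its 3′ end, CPM was not divided by gene length, and a comparison of levels between genes still assumes equal capture. Known targets of FGF signalling followed the labels: Spry4, a feedback inhibitor of receptor tyrosine kinases, was at 0.565 CPM with FGFRi and at 5.88, 13.6, 19.7 and 25.6 CPM with 0, 0.75, 3 and 12 ng/ml FGF2. Etv4, an Ets transcription factor, went from 1.38 CPM with FGFRi and 15.9 CPM without FGF2 to 46.4 CPM at 12 ng/ml. Of the genes for Erk phosphatases, Dusp4 was at 9.07, 24.1, 42.9, 64.2 and 60.4 CPM over the same libraries, slightly lower at 12 than at 3 ng/ml (ratio 0.941, 0.901 to 0.982). Dusp6 was at 8.28, 24.4, 35.9, 38.1 and 42.6 CPM. T/Bra, which marks the primitive streak and nascent mesoderm, was at 0.753, 26.7, 92.7, 205 and 208 CPM in the same order of libraries.

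By the GENCODE vM21 annotation of GRCm38, which is the same assembly as the mm10 build of the files, Fgfr1 lies on the plus strand at chr8:25513654-25575718 and Fgfr2 on the minus strand at chr7:130162451-133123350. In this annotation the Fgfr2 span is 2960900 bases long, and exons within it share the strand and overlap exons of Ctbp2. Where a counting reference holds this overlap, reads within a shared stretch cannot be assigned to a single gene. The counts were made with the GENCODE vM23 reference, in which overlaps were not checked. Fgfrl1 lies at chr5:108692382-108706924 on the plus strand. Among the other genes a same-strand overlap of exons was found for Frs3 alone, at chr17:47689030-47704286, with Tomm6os. RefSeq promoter windows of GRCm38.p6, from 250 bases before to 50 after a transcript start, were available for 9 of the 10 genes. The windows of Fgfr2 and Fgfrl1 are shown because these genes differed most between epithelial-like and mesenchymal-like cells, in opposite directions. Capitals mark matches on either strand to the E-box CAGGTG, the Ets core CCGGAA and the Tcf/Lef core CTTTGA, none of which overlap each other here.
Fgfr2, chr7:130266759-130267058, minus strand: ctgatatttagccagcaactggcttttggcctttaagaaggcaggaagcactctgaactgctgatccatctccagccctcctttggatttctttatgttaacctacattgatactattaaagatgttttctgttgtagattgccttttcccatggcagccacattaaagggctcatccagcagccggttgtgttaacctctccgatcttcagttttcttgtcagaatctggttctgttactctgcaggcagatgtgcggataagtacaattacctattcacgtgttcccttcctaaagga
Fgfrl1, chr5:108693979-108694278, plus strand: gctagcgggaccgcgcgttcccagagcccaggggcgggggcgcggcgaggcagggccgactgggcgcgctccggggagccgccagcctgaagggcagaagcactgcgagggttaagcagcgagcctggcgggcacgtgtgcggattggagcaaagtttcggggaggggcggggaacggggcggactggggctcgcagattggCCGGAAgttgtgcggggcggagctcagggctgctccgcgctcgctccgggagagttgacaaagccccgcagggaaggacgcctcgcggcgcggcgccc
The Fgfr2 window held none of the 3 motifs, and the Fgfrl1 window held 1 Ets core. Of all 32851 promoter windows, 20.2% held the E-box, 14.9% the Ets core and 16.0% the Tcf/Lef core. The Fgfrl1 window was rich in G and C (73.7%, with 37 CpG dinucleotides), whereas the Fgfr2 window was at 43.7% with 4 CpG, against medians of 52.7% and 7 over all windows. A match of letters is a description of the window and not a measured binding site.

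Fgfr1 was the most abundant receptor transcript in every library. It was at 55.5 CPM with FGFRi, 64.7 CPM without FGF2 and 60.3, 61.9 and 72.3 CPM with 0.75, 3 and 12 ng/ml FGF2. The highest level was 1.30 times the lowest, and 63.4% of the 8759 genes that reached 10 CPM and were detected throughout varied more widely. The step from 3 to 12 ng/ml FGF2 was 1.17-fold (1.12 to 1.22) upwards, and 3.62% of measured genes were as far or farther up in that step. Fgfr1 UMIs were found in 68.1% to 74.9% of cells.

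Fgfr2 was highest with FGFRi and lowest at 12 ng/ml FGF2. Its level was 26.7 CPM with FGFRi, 13.9 CPM without FGF2 and 9.38, 3.81 and 1.94 CPM with 0.75, 3 and 12 ng/ml FGF2. Each library was lower than the one before, and no neighbouring intervals overlapped. From no FGF2 to 12 ng/ml FGF2 the level was 7.16-fold lower (5.96 to 8.64), and from FGFRi to no FGF2 it was 1.93-fold lower (1.77 to 2.11). Within the dose series the steps were 1.48-fold (1.33 to 1.63), 2.46-fold (2.13 to 2.86) and 1.97-fold (1.59 to 2.44) down. Only 28 of 8237 measured genes were as far or farther down between no FGF2 and 12 ng/ml, Fgfr2 included, and only 2.04% of genes had a wider range over the 5 libraries. The share of cells with an Fgfr2 UMI was 39.4% with FGFRi, 27.3% without FGF2 and 18.9%, 8.52% and 4.78% along the doses. With every cell thinned to 5000 UMIs the shares kept this order at 12.6%, 6.31%, 4.26%, 1.65% and 0.873%.

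The remaining receptors were low. Fgfr3 was at 1.57 CPM (1.23 to 1.97) with FGFRi and at 0.845, 1.17, 0.727 and 0.834 CPM with rising FGF2, based on 47 to 95 UMIs per library. Its level was 1.86-fold (1.28 to 2.72) lower without FGF2 than with FGFRi, and the interval for 12 against 0 ng/ml FGF2 spanned a ratio of 0.663 to 1.48. Fgfr4 had 3 UMIs with FGFRi, 4 with 3 ng/ml FGF2 and none in the other libraries, where 3 counts would correspond to 0.0528, 0.0368 and 0.0424 CPM. Fgfrl1, which encodes a receptor that binds FGF but lacks the kinase domain, was at 10.6, 11.6, 11.3, 14.1 and 15.1 CPM in the order FGFRi, 0, 0.75, 3 and 12 ng/ml. It was 1.30-fold (1.18 to 1.44) higher at 12 ng/ml than without FGF2, with UMIs in 33.2% against 26.9% of cells.

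**Figure D1:**
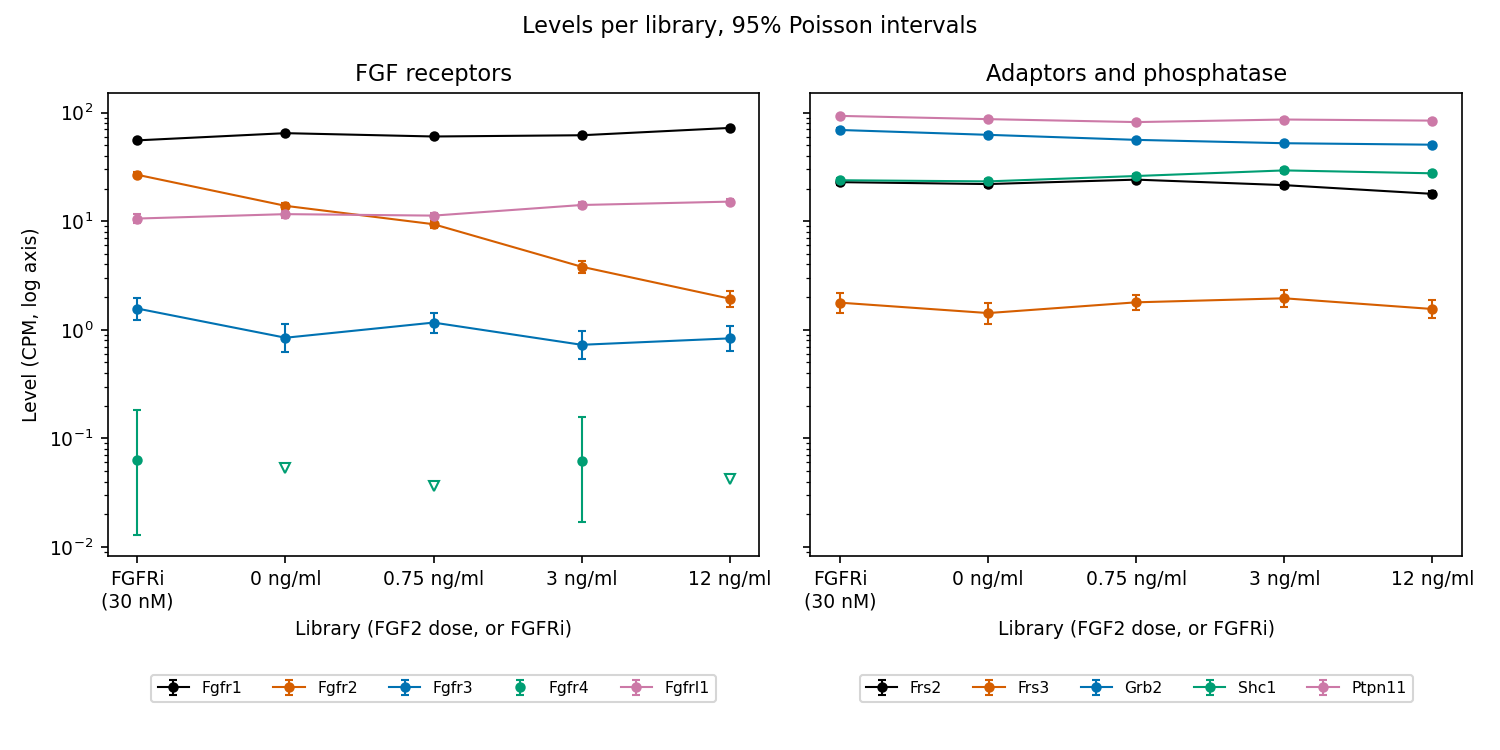
Levels of the receptor genes (left) and of the adaptor and phosphatase genes (right) in each library, in CPM on a log axis; points are libraries, lines join the points of a gene, bars are 95% Poisson intervals, and open triangles mark the level of 3 counts where Fgfr4 had none. Fgfr2 goes from 26.7 to 1.94 CPM, while Fgfr1 stays between 55.5 and 72.3 CPM.

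The make-up of the receptor transcripts therefore shifted more than their sum. The summed level of the kinase receptor genes Fgfr1 to Fgfr4 was 83.9 CPM with FGFRi, 79.4 CPM without FGF2 and 70.8, 66.5 and 75.04 CPM along the doses. Fgfr2 contributed 31.9% (30.4 to 33.3) of these UMIs with FGFRi and 17.5% (16.4 to 18.6) without FGF2. At 0.75, 3 and 12 ng/ml its share was 13.2%, 5.73% and 2.58%. Fgfr1 supplied 66.2% of receptor UMIs with FGFRi and 96.3% at 12 ng/ml FGF2, and Fgfr3 supplied 1.06% to 1.87% in every library.

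**Figure D2:**
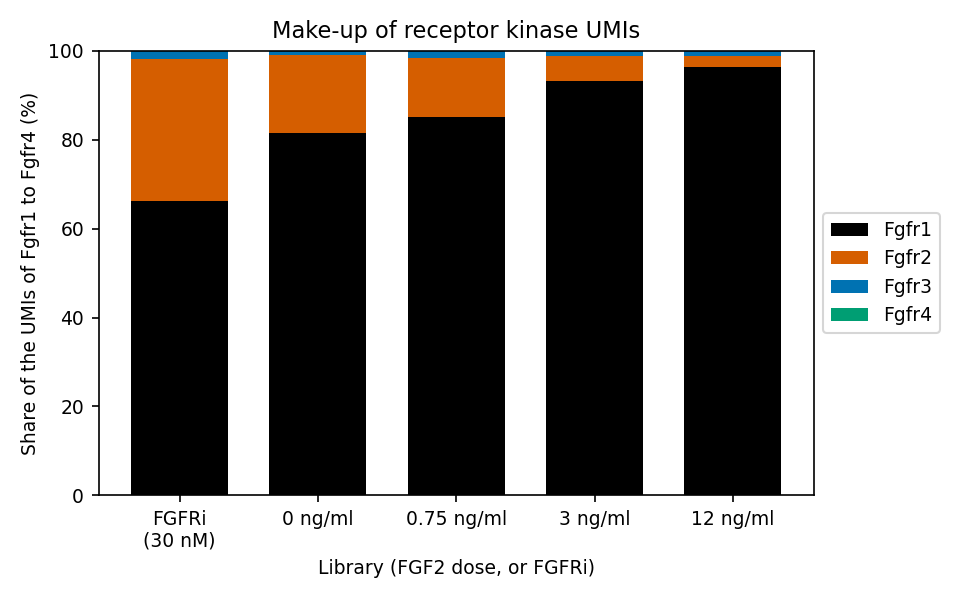
Share of the UMIs of Fgfr1 to Fgfr4 (in percent) that each gene supplied in each library; bars are stacked to 100% and Fgfr4 is too low to be seen. The Fgfr2 segment shrinks from 31.9% with FGFRi to 2.58% at 12 ng/ml FGF2.

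The adaptor genes moved little. Frs2, the main docking protein of FGF receptors, was at 22.9 CPM with FGFRi and at 22.0, 24.1, 21.5 and 17.9 CPM along the doses, lowest at 12 ng/ml. Its relative Frs3 stayed between 1.43 and 1.95 CPM, and all of its intervals overlapped. Grb2, which links phosphorylated docking proteins to the Ras exchange factor Sos, was at 69.2 CPM with FGFRi. With rising FGF2 it was at 62.4, 56.1, 52.3 and 50.7 CPM, 1.23-fold (1.18 to 1.29) between the ends of the dose series. Its interval for the step from 3 to 12 ng/ml included 1 (ratio 0.969, 0.925 to 1.02). Shc1, an adaptor that also feeds Grb2 from other receptor tyrosine kinases, was at 23.8 CPM with FGFRi and at 23.3, 26.1, 29.4 and 27.6 CPM along the doses. Ptpn11, encoding the phosphatase Shp2 that sustains Ras activity, varied least, from 81.8 to 93.3 CPM, and 88.2% of genes varied more widely. The median of the ratio of highest to lowest level over those genes was 1.43, which Fgfr1, Frs2, Grb2, Shc1 and Ptpn11 did not reach and Fgfrl1 matched.

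As a common yardstick, a gene was counted as past the fold where 2 libraries differed at least 2-fold in CPM and at least 1 of them reached 10 CPM. Of the 7 genes of the set that were measured in this sense between no FGF2 and 12 ng/ml, Fgfr2 alone was past the fold, against a background of 5.91% of all measured genes. Fgfr2 was below 10 CPM at 12 ng/ml and so had to be lower there where counted. No gene of the set passed in the other comparisons: 7 were measured from FGFRi to no FGF2 (background 7.99%), 7 from no FGF2 to 0.75 ng/ml (1.72%), 6 from 0.75 to 3 ng/ml (0.859%) and 6 from 3 to 12 ng/ml (0.0883%). In the last pair of steps Fgfr2 was below 10 CPM in both libraries and was therefore not counted, and from FGFRi to no FGF2 its 1.93-fold difference fell just short. With a ratio of 1.5, with each cell weighted equally, or without the 5% of cells with the most UMIs, Fgfr2 was counted there as well.

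The libraries differ in cell types, so the genes were next read in cells divided by cadherin. Cdh1 encodes E-cadherin, typical of epithelia such as the epiblast, and Cdh2 encodes N-cadherin, typical of the mesoderm that leaves it. The Cdh1 class held cells with at least 1 Cdh1 UMI and no Cdh2 UMI, and the Cdh2 class the converse. With FGFRi and with 0, 0.75, 3 and 12 ng/ml FGF2 the Cdh1 class made up 36.3%, 43.3%, 38.7%, 20.8% and 14.1% of cells, and the Cdh2 class 36.7%, 28.7%, 38.8%, 53.9% and 58.7%. Cells with both UMIs were 16.7% to 22.1% of each library and had the highest median UMI counts (31058 to 39233), and cells with neither were 4.05% to 6.41%. Fewer cells of a type and less RNA per cell cannot be told apart in the whole-library levels above.

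The classes matched their markers. All 11 epithelial marker genes that reached 5 CPM (of 12 listed, among them Epcam, claudins, keratins and Esrp1) were higher in the Cdh1 class in every library, with summed levels of 3086 to 5089 CPM against 146 to 528 CPM. Of the 7 to 10 measured mesenchymal markers (of 11), all were higher in the Cdh2 class except Fn1 (fibronectin) in the libraries with 0 and 0.75 ng/ml FGF2, where it was at 229 and 174 CPM in the Cdh1 class against 150 and 149 CPM. Streak markers (1 to 6 of 8 measured) and presomitic mesoderm markers (1 to 5 of 7) were all higher in the Cdh2 class. Markers of extraembryonic mesoderm and amnion, among them Hand1 and Bmp4, summed to 4066 CPM with FGFRi, 1268 CPM without FGF2 and 511, 236 and 245 CPM with 0.75, 3 and 12 ng/ml. Most of the sum with FGFRi came from Tagln, Acta2 and Ahnak, genes of the contractile and submembrane cytoskeleton, at 1915, 1008 and 704 CPM. Hand1 was at 63.5 CPM with FGFRi and 85.7 CPM without FGF2. The sum was highest with FGFRi, as Fgfr2 was, but it was not lower at 12 than at 3 ng/ml, and its part in the Fgfr2 level was not tested. In the FGFRi library 5 of the 8 were higher in the Cdh2 class, in the other libraries 5 or 6 of 7 measured were higher in the Cdh1 class. Epiblast markers summed to 48.6 to 86.1 CPM, neural markers to 15.6 to 36.6 CPM, and definitive endoderm and endothelial or blood markers to at most 7.10 and 3.99 CPM. The embryonic haemoglobin gene Hbb-bh1 had no UMI in any library. The summed level of 6 broadly expressed reference genes differed little between the classes (the widest gap was 16439.6 against 15286.5 CPM, at 12 ng/ml).

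Fgfr2 was higher in the Cdh1 class in every library. In the Cdh1 class it was at 45.6 CPM with FGFRi, 24.3 CPM without FGF2 and 19.4, 10.7 and 5.29 CPM with 0.75, 3 and 12 ng/ml FGF2. In the Cdh2 class of the same libraries it was at 13.2, 3.65, 1.73, 1.73 and 1.20 CPM. The Cdh2 class was thus 3.45-fold (2.96 to 4.04) lower with FGFRi, 6.67-fold (5.05 to 8.96) lower without FGF2 and 11.2-fold (8.46 to 15.2), 6.18-fold (4.52 to 8.55) and 4.41-fold (2.93 to 6.66) lower along the doses. Cells with both cadherins were in between in each library, at 16.5, 8.66, 5.83, 2.26 and 1.78 CPM. Cells thinned to 5000 UMIs had an Fgfr2 UMI in 20.6%, 9.40%, 8.73%, 4.51% and 1.47% of the Cdh1 class and in 7.68%, 1.44%, 0.756%, 0.698% and 0.708% of the Cdh2 class. With added FGF2 the share in the Cdh2 class was thus near 0.7% at all doses. Whether free RNA from other cells added to this share was not tested.

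The order of the libraries was also seen within the Cdh1 class. Within the Cdh1 class Fgfr2 was 4.60-fold (3.47 to 6.21) lower at 12 ng/ml than without FGF2 and 1.87-fold (1.68 to 2.09) lower without FGF2 than with FGFRi. Within the Cdh2 class it was 3.62-fold (2.68 to 4.96) lower without FGF2 than with FGFRi. There Fgfr2 was 2.11-fold (1.42 to 3.14) lower at 0.75 ng/ml than without FGF2, on 53 and 55 UMIs. At 12 ng/ml, on 48 UMIs, it was 3.04-fold (2.03 to 4.57) lower than without FGF2. The levels of this class at 0.75 and 3 ng/ml did not differ (ratio 1.00, 0.677 to 1.48). The interval from 3 to 12 ng/ml included 1 (ratio 0.695, 0.464 to 1.04). When the classes of each library were weighted by their share of UMIs in the library without FGF2, a choice made after the data were seen, the difference between 0 and 12 ng/ml went from 7.16-fold to 4.53-fold. The Cdh1 class itself differed between libraries. Its cells with and without a T UMI numbered 3 and 614 with FGFRi and 42 and 692 without FGF2. Along the doses they numbered 181 and 873, 163 and 280, and 171 and 169. The weighting does not adjust for this make-up, and its part in the Fgfr2 difference was not tested.

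Fgfrl1 differed between the classes in the other direction. In the Cdh1 class it was at 5.65, 4.40, 5.47, 6.19 and 7.39 CPM from FGFRi to 12 ng/ml FGF2, and in the Cdh2 class at 14.2, 19.6, 16.3, 19.0 and 19.8 CPM. The Cdh2 class was higher by 2.51-fold (1.97 to 3.22) with FGFRi, 4.47-fold (3.56 to 5.64) without FGF2 and 2.99-fold (2.50 to 3.58), 3.06-fold (2.43 to 3.92) and 2.67-fold (2.11 to 3.44) along the doses. Weighted to the classes of the library without FGF2, the level at 12 ng/ml was 11.5 CPM against 11.6 CPM, in place of 15.1 CPM, a choice also made after the data were seen.

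**Figure D3:**
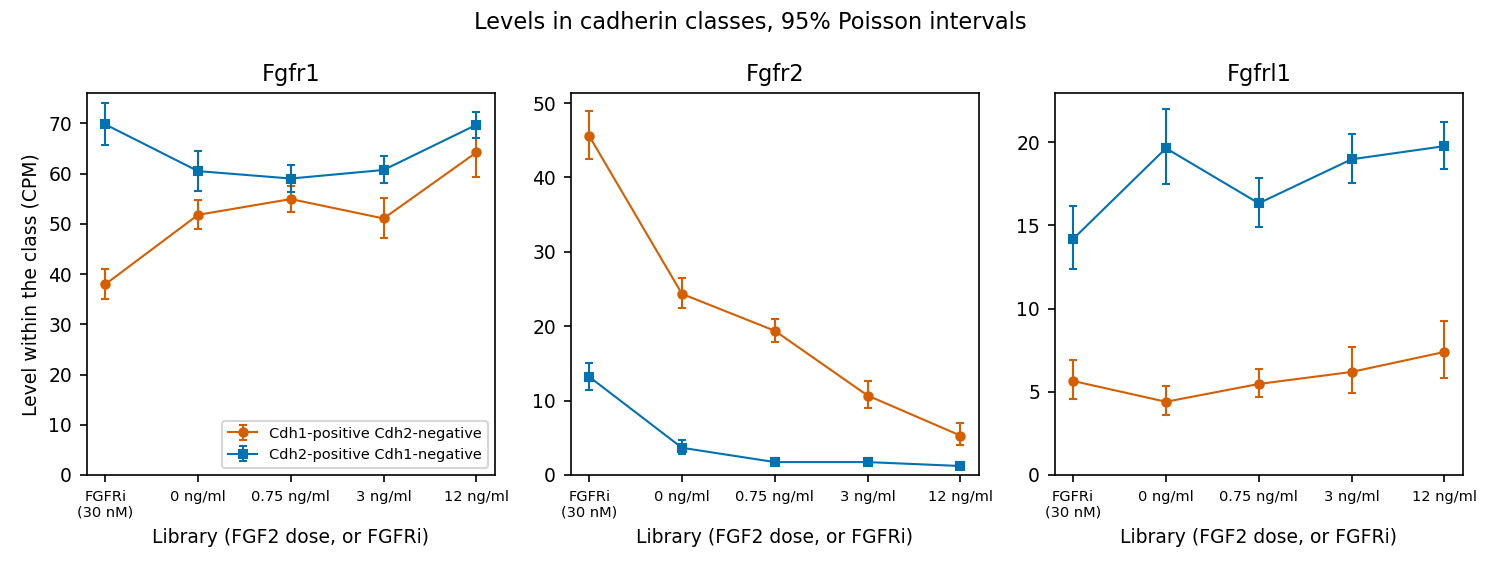
Levels of Fgfr1, Fgfr2 and Fgfrl1 (CPM) in cells of the Cdh1 class (orange circles) and the Cdh2 class (blue squares) of each library, with 95% Poisson intervals; each panel has its own axis from 0. Fgfr2 is higher in the Cdh1 class and Fgfrl1 in the Cdh2 class in all 5 libraries, while the Fgfr1 classes lie farthest apart with FGFRi and change order at 0.75, 3 and 12 ng/ml when the gate is set on thinned cells.

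Fgfr1 differed between the classes mainly in the FGFRi library. There it was at 38.0 CPM in the Cdh1 class and at 69.8 CPM in the Cdh2 class, a ratio of 1.84 (1.67 to 2.03). In the libraries with 0, 0.75, 3 and 12 ng/ml FGF2 the Cdh1 class was at 51.8, 54.9, 51.1 and 64.2 CPM and the Cdh2 class at 60.5, 59.0, 60.7 and 69.7 CPM, with ratios of 1.07 to 1.19. With the gate set on cells thinned to 5000 UMIs, the log2 ratio at 0.75, 3 and 12 ng/ml was -0.02, -0.03 and -0.07 in place of 0.10, 0.25 and 0.12, so the small excess of the Cdh2 class at these doses depended on the gate. The Cdh1 class of the FGFRi library was therefore the only one of the 10 classes in which Fgfr2 (45.6 CPM) exceeded Fgfr1 (38.0 CPM). Cells with both cadherins had the highest Fgfr1 level in 4 libraries (74.3 to 88.9 CPM) and were second to the Cdh2 class with FGFRi (61.9 CPM). UMIs of both Fgfr1 and Fgfr2 were found in 2.23% of FGFRi cells thinned to 5000 UMIs and in 1.89%, 0.771% and 0.235% of cells with 0, 0.75 and 3 ng/ml FGF2. Divided by the product of the single shares, this was 0.718 (0.508 to 0.985) with FGFRi. At the 3 doses it was 1.21 (0.828 to 1.71), 0.747 (0.463 to 1.14) and 0.555 (0.180 to 1.30). These values depended on depth. With cells thinned to 10000 UMIs the FGFRi value was 0.773 (0.634 to 0.932). At 0, 0.75 and 3 ng/ml the values were then 0.827 (0.634 to 1.06), 0.965 (0.779 to 1.18) and 0.910 (0.614 to 1.30). At 12 ng/ml the value was 0.813 (0.482 to 1.28).

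Fgfr3 was at 3.20 CPM in the Cdh1 class with FGFRi against 0.681 CPM in the Cdh2 class, on 55 and 11 UMIs. Its intervals spanned 1 at all added FGF2 doses. Among the adaptors, Grb2 was higher in the Cdh1 class without FGF2 and at each dose (62.5 to 67.2 CPM against 44.9 to 52.9 CPM), while with FGFRi the classes were at 66.8 and 66.9 CPM. Frs2 had the same pattern, with 25.3, 27.6 and 28.4 CPM in the Cdh1 class at 0, 0.75 and 3 ng/ml against 19.1, 21.1 and 19.2 CPM, and 23.8 against 24.0 CPM with FGFRi. At 12 ng/ml the Frs2 interval included 1. The gate mattered for Frs2: set on cells thinned to 5000 UMIs, it gave a log2 ratio of -0.06 with FGFRi and 0.01 at 12 ng/ml. With the gate of 1 UMI these log2 ratios were 0.01 and -0.19. From 0 to 12 ng/ml the Grb2 ratio was 0.965 (0.879 to 1.06) within the Cdh1 class and 0.849 (0.781 to 0.924) within the Cdh2 class. Weighted to the classes of the library without FGF2, a choice made after the data were seen, Grb2 was at 56.3 CPM at 12 ng/ml against 62.4 CPM without FGF2. Shc1 was at 20.4 CPM in the Cdh1 class and 27.1 CPM in the Cdh2 class with FGFRi, and at 27.1, 31.3 and 31.6 CPM against 22.7, 26.5 and 24.7 CPM with 0.75, 3 and 12 ng/ml FGF2. Ptpn11 was slightly higher in the Cdh2 class everywhere, by 1.11-fold to 1.28-fold. Frs3 intervals included 1 in all libraries but that with FGFRi, where the Cdh2 class was 1.91-fold (1.13 to 3.29) higher.

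**Figure D4:**
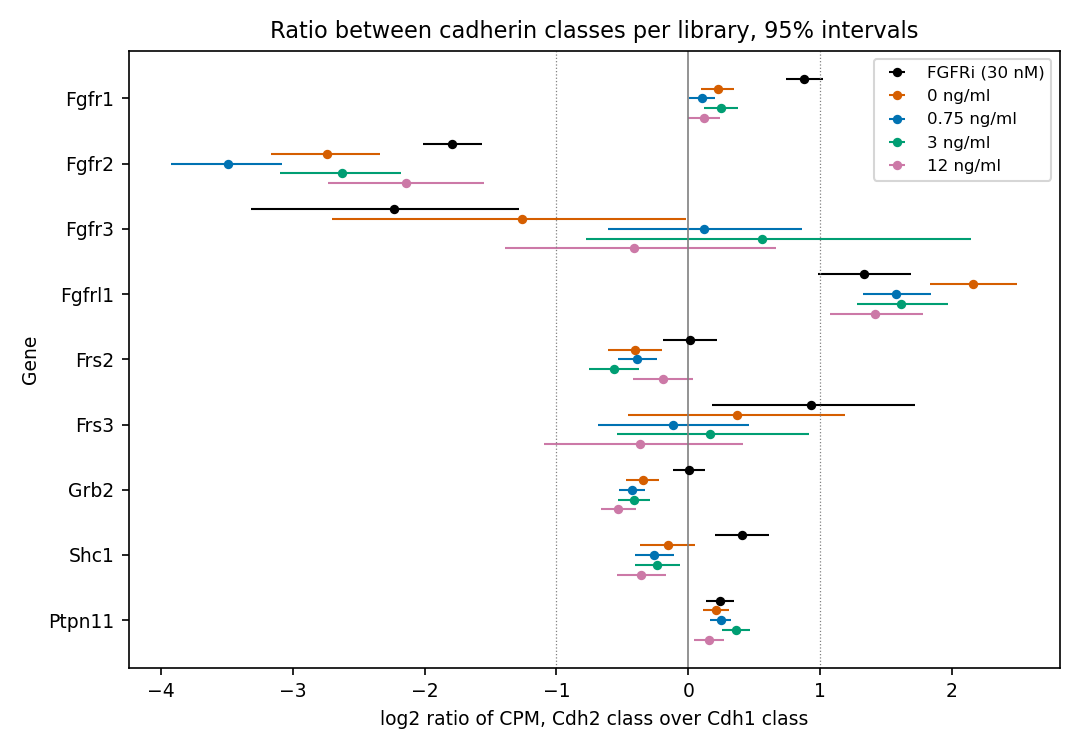
Ratio of the level in the Cdh2 class to that in the Cdh1 class on a log2 axis for the 9 genes with enough counts, 1 point per library with its 95% interval; dotted lines mark 2-fold either way. Fgfr2 lies left of the 2-fold line and Fgfrl1 right of it in every library, and Frs2, Grb2 and Shc1 lie further right with FGFRi than at any FGF2 dose. For Frs2 this order depends on the gate and is not kept when the gate is set on thinned cells.

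By the same 2-fold yardstick, Fgfrl1 (higher) and Fgfr2 (lower) were the genes of the set past the fold in the Cdh2 class, out of 7 measured, in the libraries with FGFRi (background 8.11% of all measured genes), without FGF2 (12.3%) and with 0.75 (10.6%) and 3 ng/ml FGF2 (9.13%). At 12 ng/ml Fgfrl1 alone passed of 6 measured (9.8%), because Fgfr2 was below 10 CPM in both classes. Fgfrl1 was below 10 CPM in the Cdh1 class of all 5 libraries, so where counted it had to be higher in the Cdh2 class. Fgfr2 was below 10 CPM in the Cdh2 class without FGF2 and at 0.75 and 3 ng/ml, so there it had to be lower. With FGFRi Fgfr2 was above 10 CPM in both classes. In the direction of each gene, 0.955% to 2.45% of measured genes lay as far out as Fgfrl1 over the 5 libraries and 0.782% to 1.94% as far out as Fgfr2 over 4 libraries.

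Cells were also divided by T/Bra, except in the FGFRi library, which had 22 cells with a T UMI. Fgfr2 was at 4.23 CPM in T-positive and 17.1 CPM in T-negative cells without FGF2. With 0.75 ng/ml FGF2 the levels were 3.10 and 15.5 CPM. The next dose gave 2.67 and 7.37 CPM and the highest dose 1.40 and 4.56 CPM. T-positive cells were lower in all 4 libraries, by 4.05-fold (3.12 to 5.35), 4.99-fold (4.12 to 6.10), 2.76-fold (2.13 to 3.57) and 3.26-fold (2.28 to 4.65). Within the Cdh1 class, a comparison added after the data were seen, the T-positive cells were 2.66-fold (1.97 to 3.66) lower at 0.75 ng/ml, 8.26 against 21.9 CPM. At 3 ng/ml the difference was not detectable at this depth (9.25 against 11.5 CPM, ratio 0.801, 0.548 to 1.16), and at 12 ng/ml it rested on 17 and 36 UMIs. Fgfrl1 was higher in T-positive cells at all 4 doses, by 1.78-fold, 1.81-fold, 1.75-fold and 1.30-fold. Within the Cdh1 class, also added after the data were seen, the Fgfrl1 ratio was 1.87 (1.31 to 2.62) at 0.75 ng/ml. At 3 and 12 ng/ml it was 1.35 (0.847 to 2.15) and 1.24 (0.764 to 2.02), with intervals that included 1. The ratios of Fgfr1 in T-positive over T-negative cells were 0.949 to 1.11 over all cells of a library. Within the Cdh1 class, again added after the data were seen, Fgfr1 was higher in T-positive cells by 1.36-fold (1.21 to 1.52) at 0.75 ng/ml and 1.23-fold (1.05 to 1.44) at 3 ng/ml. The highest dose gave a ratio of 1.08 (0.921 to 1.26).

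The genes whose log2 CPM followed a receptor most closely over the 10 profiles (5 libraries by 2 cadherin classes) were sought among genes that reached 50 CPM. The profiles of a library share its cells' culture and sequencing, and the values are descriptions. Closest to Fgfr2 were Lrif1 (Pearson r = 0.991), Nabp1 (r = 0.984) and Ankrd12 (r = 0.980). Nabp1, which encodes a single-stranded DNA binding protein, had a range of similar shape, from 85.8 CPM in the Cdh1 class with FGFRi to 9.93 CPM in the Cdh2 class at 12 ng/ml. For Fgfr1 the closest were Hip1 (r = 0.946), Krtcap2 (r = 0.938) and Bax (r = 0.925), all of which were lowest in the Cdh1 class with FGFRi.

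The rest of the pathway was read from lists of ligands, co-receptors and downstream genes, in comparisons that share libraries. Of 18 ligand genes listed, 5 reached 10 CPM at 0 or 12 ng/ml FGF2. Of these, Fgf3, Fgf4 and Fgf15 did so only at 12 ng/ml and so had to be higher there, which is why the list is given by its values. Fgf4 was at 0.669 CPM without FGF2 and at 10.1 CPM with 12 ng/ml, and Fgf15 at 1.30 and 13.9 CPM. Fgf8, a ligand of the streak, was at 2.43 CPM with FGFRi, 24.5 CPM without FGF2 and 72.3, 156 and 160 CPM along the doses. Fgf3 followed with 3.61, 10.1, 27.2 and 29.2 CPM from 0 to 12 ng/ml. Fgf17 was at 0.209 CPM with FGFRi, 14.3 CPM without FGF2 and 48.9 CPM at 12 ng/ml. From 3 to 12 ng/ml none of 5 ligand genes was past the fold (background 0.0883%).

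The genes listed as co-receptors and heparan sulfate proteoglycans differed among themselves. Of 9 measured (of 16 listed), 3 were past the fold downwards between 0 and 12 ng/ml and none upwards, against 333 lower and 154 higher of 8237 measured genes. Named after their values were seen, these were Flrt3 (34.5 to 12.4 CPM), Sdc4 (64.9 to 22.0 CPM) and Gpc4 (33.7 to 9.42 CPM). Gpc4 was below 10 CPM at 12 ng/ml and so had to be lower there where counted. Within the Cdh1 class, which went from 43.3% to 14.1% of cells, Sdc4 was at 89.9 and 66.0 CPM. In the same class Flrt3 was at 45.3 and 21.8 CPM and Gpc4 at 46.8 and 22.0 CPM. Also named after their values were seen, Gpc3 (112 to 200 CPM), Gpc6 (23.8 to 42.9 CPM) and Sdc2 (13.8 to 19.6 CPM) were higher at 12 than at 0 ng/ml. In the Cdh1 class of these libraries Gpc3 was lower at 12 ng/ml (107 to 49.6 CPM), and in the Cdh2 class it was higher (134 to 277 CPM). Gpc6 went from 11.8 to 16.6 CPM in the Cdh1 class and from 44.2 to 55.1 CPM in the Cdh2 class. For Sdc2 these levels were 10.7 and 11.7 CPM, and 16.7 and 20.1 CPM. With FGFRi Gpc3 was at 212 CPM. From FGFRi to no FGF2, 3 of 11 were past the fold downwards, against 454 of 8445 measured genes: Sdc3 (17.6 to 6.28 CPM) and, named after their values were seen, Flrt3 (73.5 to 34.5 CPM) and Gpc4 (76.0 to 33.7 CPM). Sdc3 was below 10 CPM without FGF2 and so had to be lower there where counted. In the steps from 0 to 0.75, 0.75 to 3 and 3 to 12 ng/ml none of 9 passed (background 1.72%, 0.859% and 0.0883%).

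Downstream of the adaptors the counts are set beside the share of all measured genes past the fold. None of 7 measured genes of the Raf, Mek and Erk list was past the fold in any of the 5 comparisons (background 0.0883% to 7.99%). Of 11 measured genes for docking proteins, exchange factors and Ras, Pik3r1, named after its values were seen, was the only one. It was at 20.9 CPM without FGF2 and 10.2 CPM at 12 ng/ml (background 5.91%). Feedback inhibitors and target genes share Spry4, Dusp4 and Dusp6: with FGFRi all 5 targets were below 10 CPM, so those counted from FGFRi to no FGF2 had to be higher without FGF2, and no count is given. Of the inhibitors above 10 CPM in both libraries, Spred2 was at 14.6 CPM with FGFRi and 32.7 CPM without FGF2, and Il17rd, a membrane inhibitor of FGF receptors, at 15.1 and 36.9 CPM. Spry2 was at 24.2 and 32.0 CPM and Spred1 at 35.9 and 58.1 CPM. Cbl, a ubiquitin ligase, was at 55.7 and 51.6 CPM and Cblb at 20.7 and 18.2 CPM. From 0 to 12 ng/ml 2 of 11 inhibitors, Spry4 and Dusp4, were past the fold upwards and none downwards (background 5.91%). Of the 5 targets 3 were, namely Spry4, Dusp4 and Etv4, all upwards. From 0 to 0.75 ng/ml Spry4 alone passed (1.72%). Spry4 was below 10 CPM without FGF2 and so had to be higher where counted. None of the 11 inhibitors and 5 targets was past the fold from 0.75 to 3 (background 0.859%) or from 3 to 12 ng/ml (0.0883%).

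Other receptor tyrosine kinases that use Grb2 or Shc1 were mixed. Between 0 and 12 ng/ml FGF2, 1 of 8 measured (of 16 listed) was past the fold upwards and 3 downwards. Over all 8237 measured genes 154 were higher and 333 lower. All 4 were below 10 CPM in the lower library. Flt1, a VEGF receptor, was at 76.0 CPM with FGFRi, 22.0 CPM without FGF2 and 6.63, 2.63 and 2.95 CPM along the doses. Met, the HGF receptor, was at 10.4 CPM without FGF2 and 2.15 CPM at 12 ng/ml. Named after their values were seen, Erbb3 went from 18.6 to 8.59 CPM and Pdgfra from 3.43 to 18.1 CPM between the same libraries. Within the Cdh1 class of these libraries Erbb3 was at 32.8 and 30.7 CPM, Flt1 at 29.4 and 8.09 CPM and Met at 17.3 and 5.59 CPM. Within the Cdh2 class Pdgfra was at 8.16 and 27.6 CPM. Kit, at 2.80 CPM with FGFRi and 11.4 CPM without FGF2, was also named after its values were seen.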

How the data were processed

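Single-cell 3′ libraries (10x Genomics, v3.1 chemistry) were aligned by the authors to mm10 with the 10x GENCODE vM23 reference and counted with Cell Ranger, whose version is 5.0.1 per the file headers. The deposited matrices hold raw UMI counts per gene and barcode, not normalised. Barcodes with at least 2500 genes and at most 10% mt- UMIs were kept, as in the study's methods. UMIs were summed over cells and divided by their total (CPM). Intervals were exact Poisson for levels, exact binomial (Clopper-Pearson) for shares and exact conditional for ratios, without a pseudocount. Only those for ratios were tried on simulated data. These were Poisson counts, which do not hold the spread between cells or cultures. List medians used log2(CPM + 1). No doublet caller was run. A limit for a count of 0 was set at 3 counts. Groups came from the sample labels. All 10 genes were named. So were, per comparison, the 2 listed pathway genes farthest past the fold each way, the 3 genes most like Fgfr1 and Fgfr2, and label checks. The genes and lists were chosen with earlier results of these data known. Alternatives changed the cell filter, cell weights, scaling (edgeR TMM, median-of-ratios), gates, fold and minimum level. Python 3.11.15, NumPy 2.4.6, SciPy 1.17.1, R 4.3.3 and edgeR 4.0.16 were used.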

Additional observations from a re-analysis of the deposited data

Results flagged for a closer look

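Shc1 differed between the cadherin classes in opposite directions. Its log2 ratio of the Cdh2 class over the Cdh1 class was 0.41 with FGFRi, and -0.26, -0.24 and -0.36 with 0.75, 3 and 12 ng/ml FGF2, each with a counting interval on 1 side of 0. Each condition had 1 library, and the difference between conditions was not tested.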

How the results depend on the processing

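No paired analysis was possible because each condition had 1 library, and for the same reason no replicate could be left out. No gene past the fold changed direction under these alternatives. The sign differed for 25 pairs of a ratio and an alternative, all of ratios under 2-fold, among them Fgfr1 between classes at the 3 added doses with the gate set on thinned cells. Between FGFRi and no FGF2, the log2 ratio of Fgfr1 was 0.11 with cells weighted equally and 0.14 without the 5% of cells with the most UMIs, against 0.22, and that of Fgfr2 was -1.10 without those cells against -0.95. Weighting by cadherin class, added after the data were seen, gave -2.18 for Fgfr2 from 0 to 12 ng/ml against -2.84, and -0.01 for Fgfrl1 against 0.38. The number of genes past the fold from FGFRi to no FGF2 was 1 in place of 0 with cells weighted equally, without those cells, or with a ratio of 1.5. It was 1 in place of 0 from 0.75 to 3 ng/ml with a minimum of 5 CPM. With a minimum of 50 CPM it was 0 in place of 1 from 0 to 12 ng/ml, and 0 between the classes of each library, since Fgfr2 and Fgfrl1 lie below that level. Between the classes it was 1 in place of 2 at 3 ng/ml with the gate set on thinned cells, and 2 in place of 1 at 12 ng/ml with 5 CPM. TMM and median-of-ratios scaling changed no count. Counts of Fgfr3, Fgfr4 and Frs3 were too low for shares to be read.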
